A study of Mus musculus with 9 samples.

Results

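The genes described here encode the proteins of the cytosolic ribosome, and they were taken by symbol: names that begin with Rpl or Rps and a number, together with Rpsa, Rplp0, Rplp1 and Rplp2. S6 kinases, Rps19bp1 and pseudogene symbols share these letters and were left out. Of 27095 loci in the table, 100 carried such letters, 15 of these were removed, and 85 genes remained, with 52 named for the large subunit and 33 for the small subunit. They lie on 19 chromosomes, and 4 of them, Rpl10, Rpl36a, Rpl39 and Rps4x, lie on the X chromosome.

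RNA-seq was performed on 9 wild-type fetuses (strain C57BL/6 in the labels, C57BL/6J in the methods) collected on gestational day 17 (GD17), 3 in each of 3 groups. Control fetuses came from dams given lactated Ringer's solution intraperitoneally on gestational day 7, and the exposed fetuses from dams given EtOH at 2.9 g/kg by the same route on the same day. EtOH-exposed affected fetuses had ocular and craniofacial defects, and EtOH-exposed unaffected fetuses had the same exposure without these defects. The labels name the tissue as fetal brain and the methods as cortex. The defects were used to sort the exposed fetuses, so the affected and unaffected groups differ by outcome and not by treatment. The table gives 1 value per gene and group in FPKM (sequenced fragments, corrected for transcript length and for library size), computed over the 3 fetuses. Values of single fetuses were not analysed here. The comparisons below are therefore ratios of 2 group values, without a replicate error and without a test, and the spreads given are spreads between genes, which are not replicates.

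The ribosome is made of ribosomal RNA and a fixed set of proteins, most of them present as a single copy per particle, so a cell has to supply large and small subunit proteins in matched amounts. The mRNAs of these proteins are short, abundant and stable, and most begin with a C followed by a run of pyrimidines. This start, called a 5' terminal oligopyrimidine (TOP) tract, places their translation under the control of the kinase mTOR and the RNA-binding protein Larp1. Growing and dividing cells, such as the progenitors of the fetal cortex, carry large amounts of these mRNAs. In mice and in people, reduced dosage of single ribosomal protein genes is known to disturb blood formation and the patterning of the skeleton and face.

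The starts of a few of these genes are shown first, because the tract at the start is the shared element of the family. Each line gives 30 bases of the mouse genome from RefSeq (GRCm38.p6, the assembly also called mm10), 10 before and 20 from the annotated start of transcription. Capitals mark the unbroken run of C and T that opens the transcript.
Rpl15, chr14:18270967-18270996, minus strand: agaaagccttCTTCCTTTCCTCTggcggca
Rpl35, chr2:39005112-39005141, minus strand: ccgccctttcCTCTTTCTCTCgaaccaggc
Rpl28, chr7:4792955-4792984, plus strand: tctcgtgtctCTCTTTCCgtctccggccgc
Rpl38, chr11:114668570-114668599, plus strand: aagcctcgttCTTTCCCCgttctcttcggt
Rps6, chr4:86857348-86857377, minus strand: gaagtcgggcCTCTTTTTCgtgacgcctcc
Rps10, chr17:27635225-27635254, minus strand: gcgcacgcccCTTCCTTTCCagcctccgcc
Rps18, chr17:33955646-33955675, minus strand: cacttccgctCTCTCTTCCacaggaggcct
Rps27, chr3:90213629-90213658, minus strand: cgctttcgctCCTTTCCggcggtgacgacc
In Rpl27a, the most abundant member, the annotated start lies at a T inside a longer run, and Rpl22l1 and Rpl4, the members with the largest and the smallest difference between affected and control, have no run at the annotated start.
Rpl27a, chr7:109519185-109519214, plus strand: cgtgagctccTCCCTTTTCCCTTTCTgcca
Rpl22l1, chr3:28805498-28805527, plus strand: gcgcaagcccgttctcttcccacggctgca
Rpl4, chr9:64173377-64173406, plus strand: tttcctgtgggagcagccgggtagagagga

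RefSeq starts were matched for 61 of the 82 expressed members. A C followed by C or T, with at least 5 bases in the run, opened 13 of them (21.3%), against 800 of 26961 other genes (2.97%), and the share was 7 of 37 for the large and 6 of 24 for the small subunit. The letters CTTTCC occurred on the transcribed strand anywhere in the 30 bases in 9 of 61 members (14.8%) and in 1.49% of the other genes. The same letters on the opposite strand, read as GGAAAG, occurred in 0 of 61 members and in 1.52% of the other genes. A start annotated a few bases away from the one used in the cell hides the run, so these are descriptions of the annotation.

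Expressed members were those with a mean of at least 1 FPKM over the 3 groups, and 82 of 85 passed, 49 of the large and 33 of the small subunit. The filter reads the mean over all groups and separates the genes widely: the lowest member above it, Rpl7l1, stood at 38.7, 44.4 and 33.7 FPKM in control, unaffected and affected fetuses, and the highest below it, Rpl39l, at 0.294, 0.327 and 0.545. The 3 members below it are copies known from other tissues. Rpl3l is the form of Rpl3 in heart and skeletal muscle, and it was at 0.0314, 0 and 0.0101 FPKM. Rpl10l is an intronless copy of Rpl10 used in male meiosis, and it was listed at 0 in every group. Rpl39l is the testis form of Rpl39.

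The ribosomal protein genes were among the most abundant mRNAs of this tissue. Their median FPKM in control, unaffected and affected fetuses was 1516, 1722 and 1168, and together they made up 23.1%, 24.1% and 19.3% of the FPKM summed over all loci with a gene name. Over all loci, where loci without a gene name hold most of the sum, their shares were 8.51%, 7.4% and 6.17%, with the unaffected group below control. In control fetuses 61 of the 82 lay within 2-fold of the median. Rpl27a, a protein of the large subunit, was the highest at 9863, 9855 and 6840 FPKM in control, unaffected and affected fetuses. Rpl41, a very short peptide encoded in 75 nt, followed with 5278, 6444 and 3656 FPKM, and Rpl39, a small protein that lines the exit tunnel, with 4943, 4881 and 3354 FPKM. Rpl35 stood at 3819, 4112 and 2663 FPKM. In all 4 of these the affected group was the lowest.

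Small subunit genes were more alike in level than large subunit genes. The upper quartile was 1.57 times the lower one in the small subunit and 2.58 times in the large subunit of control fetuses, and the medians were 1619 and 1423 FPKM. The large subunit median divided by that of the small subunit gave 0.879, 0.84 and 0.825 in control, unaffected and affected fetuses. The median log2 fold change per gene of affected against control, given below, orders the subunits the other way. It was -0.389 in the large and -0.448 in the small subunit. The highest small subunit genes were Rps29 at 3783, 4073 and 2980 FPKM, Rps27 at 3619, 4091 and 2478 FPKM, and Rps9 at 3586, 3828 and 2532 FPKM, so the top of the small subunit lies well under that of the large one. Among the low genes, Rps15a was at 74.3, 77.8 and 52.0 FPKM and Rpl37 at 254.5, 281.4 and 201.6 FPKM. Lower than these were Rps4y2 in the small subunit and Rpl22, Rpl22l1 and Rpl7l1 in the large one.

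Many ribosomal protein genes have processed pseudogenes of nearly the same sequence, among which short reads can be shared, so differences in level between the genes depend on how such reads were assigned. In 30 of the 82 genes no stretch of 50 coding bases, the length of one read, was unique among annotated transcripts, and the median share of unique stretches was 8.55%. The share was at least 50% in 13 genes. Among those 13 the levels were more scattered, with an upper quartile 9.84 times the lower one in control fetuses, and low-level copies such as Rpl7l1, Rps27l and Rps4y2 are among them. That assignment is not given in the sources used here.

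**Figure D1:**
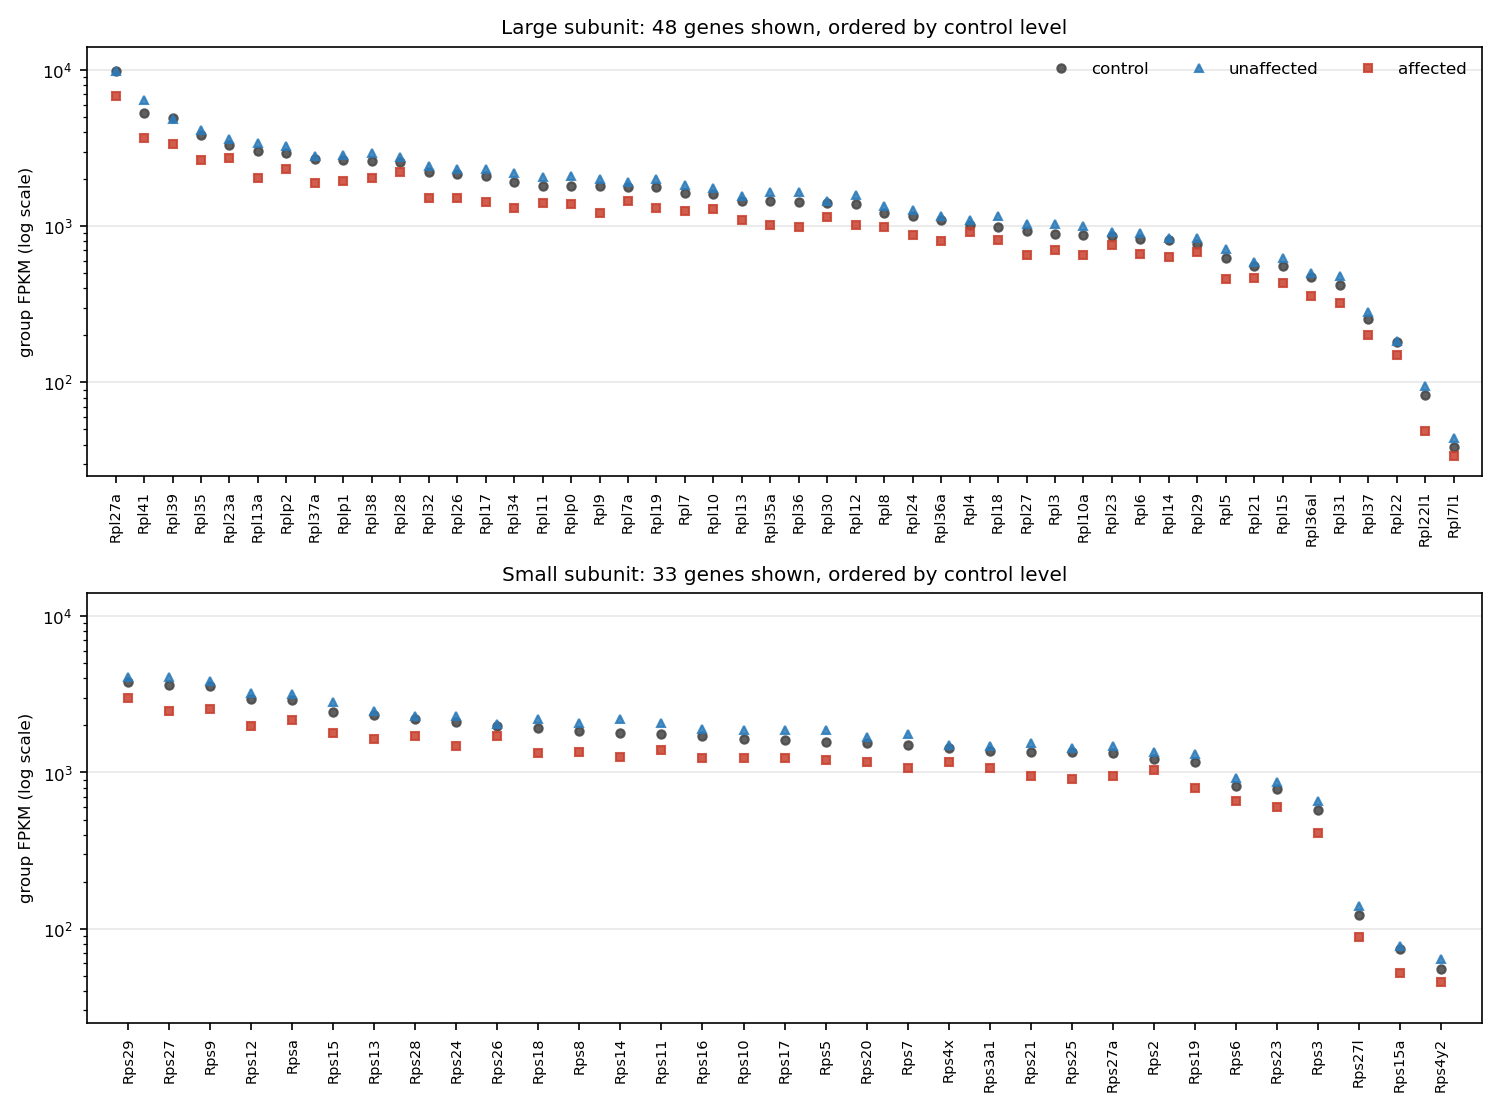
FPKM of 81 expressed ribosomal protein genes (log axis) in control (circles), EtOH-exposed unaffected (triangles) and EtOH-exposed affected fetuses (squares), with 1 point per group and gene, large subunit above and small subunit below. On the authors' scale the affected point is the lowest for each gene shown, and only Rpl27a and Rpl39 have the unaffected point below control. The position of the unaffected points relative to control depends on how the groups are scaled. Whether the affected point is the lowest also depends on it for Rps26, Rpl23, Rpl22, Rpl4 and Rpl29.

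The order of the genes was nearly the same in the 3 groups. Across the 82 genes, Spearman's rho between the FPKM of control and affected fetuses was 0.991 and that between control and unaffected fetuses 0.997, a description of levels that share gene length, sequence and annotation. Ranked by level, 62 genes moved by 3 places or fewer between control and affected, and the largest shifts were 9 places, down for Rpl9 and up for Rpl7a.

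The comparison of affected with control fetuses shows how these mRNAs stood in offspring with defects. All 82 expressed genes were lower in the affected group, with log2 fold changes (log2 of the ratio of the group FPKM) from -0.77 to -0.14 and a median of -0.41, a ratio of 0.754. Lower by at least 20%, a ratio of at most 0.8, were 62 of 82, or 75.6%, against a background of 11.5% of the 15455 expressed loci. Of all expressed loci, 47.0% were lower by any amount, with a median of 0.02. At a difference of 1.5-fold 1 member was left, against 3.1% of all loci, so the difference was moderate in size and shared by the family.

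The values given are on the authors' scale. When the groups were set to the same sum over named loci, the median became -0.23, 26 members and 4.81% of all loci were lower by at least 20%, and Rpl4 and Rpl29 were no longer below control. With folds centred on the median of other loci of at least 100 FPKM, the median was -0.26, 29 members and 5.42% of all loci passed the 20% limit, and Rpl4 again was not below control.

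Rpl22l1, at chr3:28805508-28807424 (GRCm38.p6, as are the coordinates that follow), had the largest difference. It is a paralogue of Rpl22 that can replace it in the large subunit. Its FPKM in control, unaffected and affected fetuses were 83.2, 94.2 and 48.8, which is -0.77 on the log2 scale for affected against control. The next were near -0.6: Rpl9 (chr5:65388364-65391431) at 1811, 2017 and 1208 FPKM, with -0.58, and Rps12 (chr10:23785183-23787383) at 2969, 3218 and 1997 FPKM, with -0.57. Rps12 is a protein of the beak of the small subunit. Rpl13a (chr7:45125563-45128745), which hosts small nucleolar RNAs in its introns and is counted jointly with Mir5121 and Snord33, was at 3011, 3391 and 2026 FPKM, with -0.57. Rps25, needed for initiation at some internal ribosome entry sites, was at 1352, 1444 and 911.5 FPKM, and Rpl34 at 1927, 2178 and 1301 FPKM, both with -0.57. Rpl39 had -0.56, Rpl17 -0.56, Rpl32 -0.55 and Rps19 -0.55. Apart from Rpl22l1, each of these genes stood above 1000 FPKM in control fetuses, and each was lowest in the affected group.

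Rpl4, a protein of the exit tunnel with the longest coding sequence of the family (1257 nt), had the smallest difference, at 1010, 1096 and 915.6 FPKM in control, unaffected and affected fetuses, or -0.14 on the log2 scale for affected against control. Rpl29, which also binds heparin, was at 763.5, 840.5 and 687.6 FPKM, with -0.15. Rpl23, a protein that can bind the p53 regulator Mdm2, was at 863.2, 918.4 and 753.0 FPKM, with -0.20. Rpl7l1 had -0.20. These genes belong to the large subunit, and on the authors' scale their affected values were the lowest of the 3 groups. With the groups set to the same sum over all loci, Rpl4, Rpl29 and Rpl23 were not below unaffected fetuses. With the same sum over named loci, Rpl4 and Rpl29 were not below control.

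The stalk proteins recruit the elongation factors to the large subunit. Rplp0, the base of the stalk, was at 1813, 2085 and 1386 FPKM in control, unaffected and affected fetuses, Rplp1 at 2636, 2849 and 1935 FPKM, and Rplp2 at 2936, 3233 and 2310 FPKM. Their log2 fold changes of affected against control were -0.39, -0.45 and -0.35, so the stalk genes differed by about as much as the family median.

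Rpl5 and Rpl11 enter the large subunit as a particle with a small ribosomal RNA, and outside the ribosome they can hold back Mdm2. Rpl5 was at 621.3, 709.2 and 458.0 FPKM, with -0.44 for affected against control, and Rpl11 at 1818, 2068 and 1416 FPKM, with -0.36. Rpl10, which is added late and is needed before the subunits can join, was at 1598, 1745 and 1287 FPKM, with -0.31. Rpl38, whose loss in mice alters the pattern of the axial skeleton, was at 2613, 2918 and 2023 FPKM, with -0.37.

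In the small subunit, Rps6, the classical substrate of the S6 kinases, was at 820.9, 918.6 and 657.5 FPKM, with -0.32 for affected against control. Rps19, mutated in Diamond-Blackfan anaemia, was at 1159, 1306 and 792.9 FPKM, with -0.55. Rps3, which lines the entry of the mRNA channel, was at 574.7, 660.5 and 407.9 FPKM, with -0.49. Rpsa, also known as the laminin receptor, was at 2913, 3194 and 2163 FPKM, with -0.43, and Rps27a, made as a fusion with ubiquitin, at 1336, 1469 and 945.7 FPKM, with -0.50. Of these 5 genes, Rps6 alone missed the ratio of 0.8, at 0.801.

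Both subunits were lower in affected fetuses. For affected against control the median log2 fold change was -0.39 in the large and -0.45 in the small subunit, a difference of 0.06. The interquartile range across genes was 0.209 and 0.137. Lower by at least 20% were 34 of 49 large (69.4%) and 28 of 33 small subunit genes (84.8%), against 11.5% of all loci and 16.1% of other loci with coding sequences of the members' length. The large subunit held both the largest and the smallest differences, and its values ran over 0.628 log2 units against 0.351 in the small subunit. A difference between the subunits was not tested, and among the 13 genes with mostly unique sequence it was 0.19.

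The comparison of affected with unaffected fetuses separates exposed offspring by outcome. It uses the same affected values as the comparison above and is not independent of it. All 82 genes were lower in affected fetuses, with a median log2 fold change of -0.56, from -0.95 for Rpl22l1 to -0.26 for Rpl4. At least 20% lower were 76 of 82, against 18.5% of all expressed loci, and at least 1.5-fold lower were 36, against 5.1%. Of other loci with coding sequences of the members' length, 31.6% were lower by at least 20%, and the share was 48.8% when they also had at least 100 FPKM and 61.5% for other loci up to 400 nt. The medians of the large and small subunit were -0.54 and -0.60. Rpl41, with -0.82, and Rps19, with -0.72, were among the genes with large differences here, and Rps26, with -0.26, was near Rpl4 at the small end. With the groups set to the same sum over all loci, the median was -0.25, 26 genes and 4.05% of all loci passed the 20% limit, and 5 genes (Rps26, Rpl23, Rpl22, Rpl4 and Rpl29) were no longer lower in the affected group.

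The comparison of unaffected with control fetuses shows exposure without defects. On the authors' scale 80 of 82 genes were slightly higher in unaffected fetuses, with a median log2 fold change of 0.15, but with the groups set to the same sum over all loci all 82 were lower and the median was -0.19. On that scale the median of all expressed loci was -0.33, and 51.5% of them were lower by at least 20%, as were 2 of 82 members. Higher by at least 25%, the same fold in the other direction, were 0 members and 5.53% of all loci on the authors' scale, and higher by at least 10% were 49 members and 19.4% of all loci. The exceptions were Rpl27a, at 9863 FPKM in control and 9855 in unaffected fetuses, and Rpl39, at 4943 and 4881 FPKM. The medians of the large and small subunit were 0.14 and 0.15 on the authors' scale. The order affected, control, unaffected from low to high was seen in 80 of 82 genes and in 31.1% of all expressed loci on that scale.

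The sums behind these scales differed between the groups. Named loci summed to 620805 FPKM in control, 653321 in unaffected and 550022 in affected fetuses, and loci without a gene name held 63.1%, 69.3% and 68.0% of the sum over all loci. The median log2 fold change of all expressed loci was between 0.007 and 0.02 in the 3 comparisons.

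**Figure D2:**
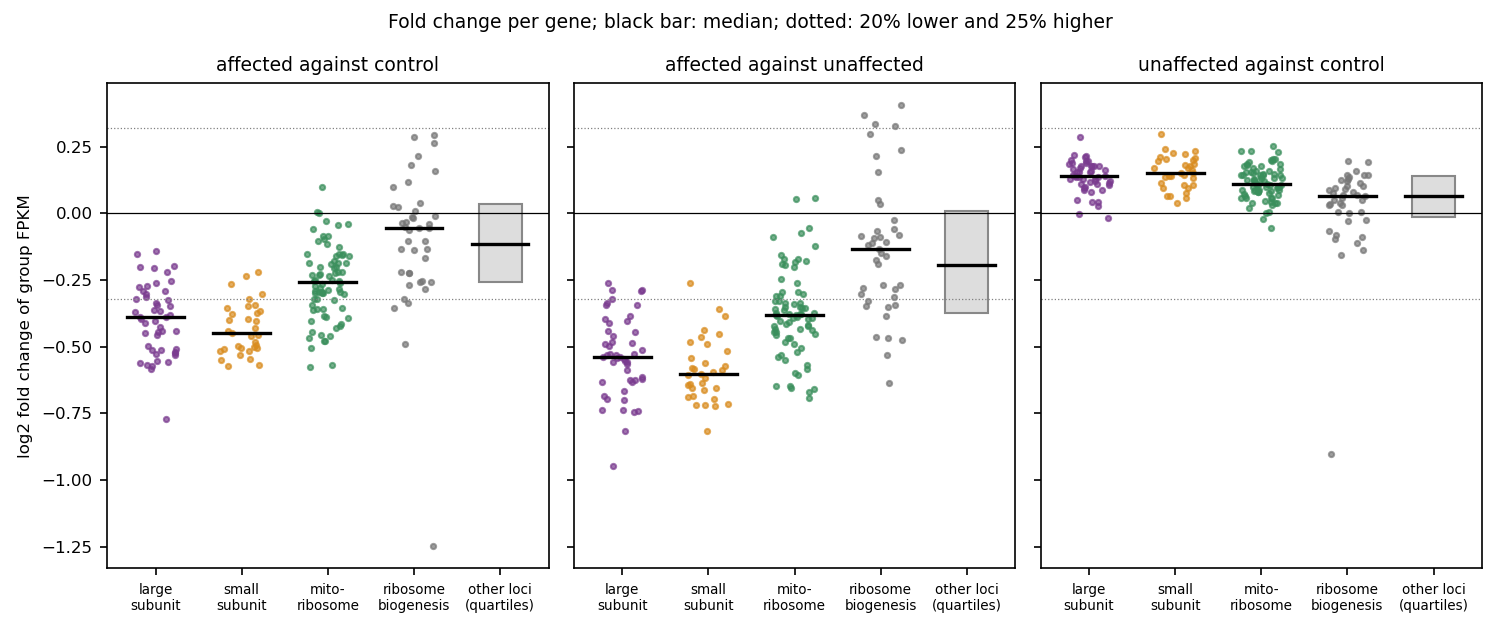
Log2 fold change of group FPKM in the 3 comparisons for each large subunit and small subunit gene, each mitochondrial ribosomal protein gene and each ribosome biogenesis gene (points), with medians as black bars, the quartiles of 5261 other loci with coding sequences as long as those of the members as grey boxes, and dotted lines at 20% lower and 25% higher. Both subunits lie below 0 in the comparisons with the affected group, at medians of -0.39 and -0.45 against control; in unaffected against control they lie just above 0 on the authors' scale, and below 0 when the groups have the same sum over all loci.

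Fold changes in this table moved with the length of the coding sequence, and ribosomal protein genes are short, from 75 to 1257 nt. A coding length was found for 94.7% of the other expressed loci with a gene name. Across 11835 other loci, the difference of affected from control on the log2 scale had a Spearman's rho of 0.577 with coding length, and across the 81 protein-coding members it was 0.342. These points share the libraries and the annotation, and long genes were higher and short genes lower in affected fetuses. Other loci with coding sequences above 1257 nt had a median of 0.12, and those up to 400 nt a median of -0.27.

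Within each class of length the ribosomal protein genes were lower than the other loci. Up to 400 nt, affected fetuses differed from control by a median log2 of -0.48 for 28 members and -0.27 for 584 other loci. Between 400 and 600 nt it was -0.45 for 30 members and -0.19 for 954 other loci. Above 600 nt it was -0.35 for 24 members, with the pseudogene transcript of Rps4y2 among them, and -0.08 for 3723 other loci up to the length of Rpl4. Of the 5261 other loci in the members' range of length, 16.1% were lower by at least 20% and the median was -0.11. All 82 members lay below that median and 73 below the lower quartile of -0.26. When these loci also had at least 100 FPKM, the median of the remaining 619 was -0.21 and 28.1% were lower by at least 20%. The part of length in the result was not tested beyond these classes.

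Against unaffected fetuses the same classes gave -0.56, -0.60 and -0.50 for the members and -0.40, -0.30 and -0.14 for the other loci. In unaffected against control the members had 0.13, 0.15 and 0.16 and the other loci 0.11, 0.09 and 0.06 on the authors' scale. Centred on 1 common value, the median of the 5261 other loci in the members' range of length, most of which are longer than 600 nt, the members had medians of -0.29 for affected against control, with 38 of 82 lower by at least 20%, and -0.37 for affected against unaffected, with 54. On that scale 6.71% and 10% of the 5261 other loci were lower by as much, and 6.3% and 7.26% of all loci. For unaffected against control the median was then 0.08.

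**Figure D3:**
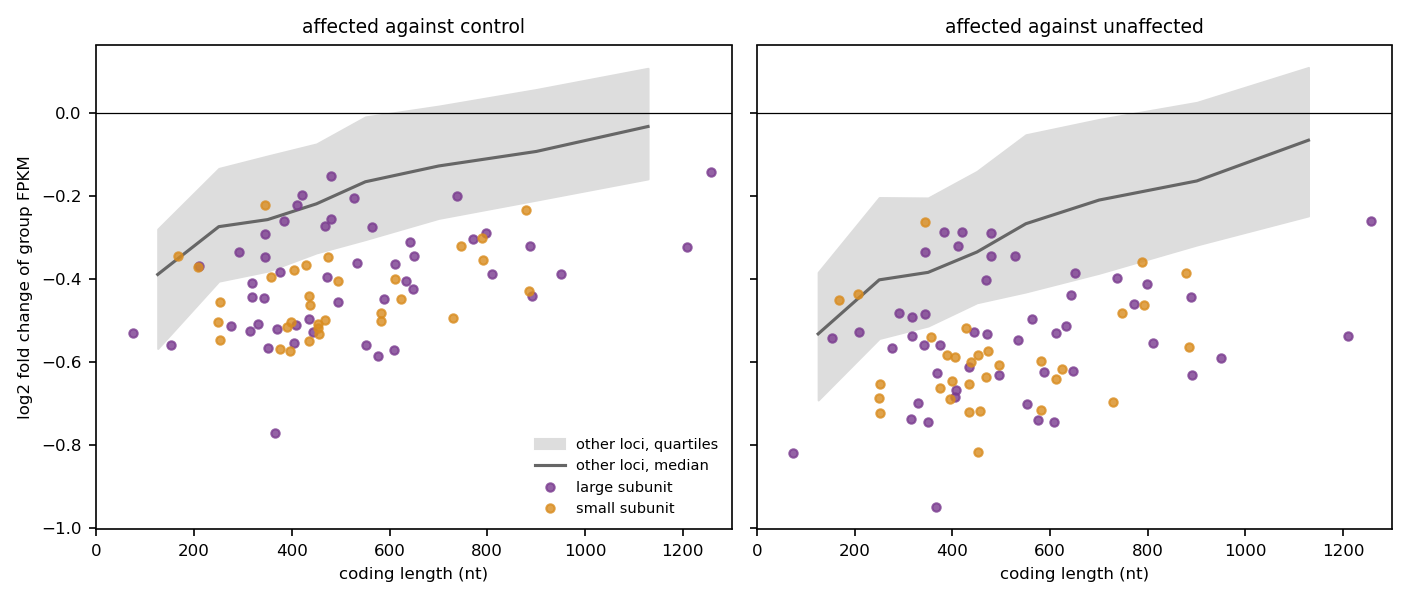
Log2 fold change of group FPKM against coding length in nt, for affected against control (left) and affected against unaffected (right). Points are protein-coding members by subunit, and the line and the grey band are the median and the quartiles of the other expressed loci in bins of length. The other loci are lower where the coding sequence is short in both panels. The members are so against control, with medians of -0.48 up to 400 nt and -0.35 above 600 nt. Against unaffected fetuses their order is weaker, with a Spearman's rho of 0.195 against 0.342. Most members lie under the band.

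The level of the gene was related to the difference as well. The 23 genes above 2000 FPKM in control fetuses differed between affected and control by a median log2 of -0.50, and the 24 genes under 1000 FPKM one of -0.34. Across the 81 protein-coding members, Spearman's rho between mean FPKM and the fold change was -0.345, and it was -0.426 in the large and -0.075 in the small subunit. The share of unique sequence had a rho of 0.075, and the median was -0.40 in the 13 genes with mostly unique sequence and -0.41 in the 30 genes with none. The 13 genes with a pyrimidine run at the annotated start had a median of -0.40 and the 48 genes without it -0.44. The 4 genes on the X chromosome had -0.38 and the autosomal ones -0.41.

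Several members have a related gene among the members, from close duplicates to more distant paralogues and a pseudogene, and Rpl22l1, the member with the largest difference, is a paralogue of Rpl22. Expressed pairs were Rpl22 and Rpl22l1, Rpl36a and Rpl36al, Rps27 and Rps27l, Rpl7 and Rpl7l1, and Rps4x and Rps4y2. Rps4y2 lies on chromosome 6 in spite of its name, and RefSeq lists it as the transcribed pseudogene Rps4l. The first 60 coding bases of 2 of these pairs and of a pair whose copy was below the filter are shown from GENCODE M21 transcripts, with the bases that differ in capitals.
Rpl36a: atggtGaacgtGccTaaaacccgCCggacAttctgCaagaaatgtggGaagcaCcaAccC
Rpl36al: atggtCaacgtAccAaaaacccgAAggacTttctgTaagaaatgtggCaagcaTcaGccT
Rps27: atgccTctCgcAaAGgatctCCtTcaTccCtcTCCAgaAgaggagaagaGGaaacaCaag
Rps27l: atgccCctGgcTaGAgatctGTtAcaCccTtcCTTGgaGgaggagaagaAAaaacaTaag
Rpl39: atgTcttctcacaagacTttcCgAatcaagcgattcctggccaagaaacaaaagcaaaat
Rpl39l: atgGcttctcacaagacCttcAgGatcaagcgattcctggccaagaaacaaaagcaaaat
Within these 60 bases 11 differ between Rpl36a and Rpl36al, 18 between Rps27 and Rps27l, and 4 between Rpl39 and Rpl39l. Over the coding sequence the identity of a copy and its original ran from 56.0% for Rpl7 and Rpl7l1 to 87.7% for Rpl36a and Rpl36al. The longest identical stretch in any pair was 38 nt, in Rpl39 and Rpl39l, which is shorter than a read of 50 bases.

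Rpl22l1 stood at 46.1% of the level of Rpl22 in control, 51.2% in unaffected and 32.4% in affected fetuses. Rpl22 itself was at 180.5, 183.9 and 150.7 FPKM, or -0.26 on the log2 scale for affected against control, so the copy differed by more than its original. The other expressed pairs kept closer ratios. Rpl36al stood at 43.3%, 43.0% and 44.4% of Rpl36a, whose FPKM were 1094, 1168 and 804.8. Rps27l, a target of p53, was at 121.8, 139.6 and 88.8 FPKM and stood at 3.37%, 3.41% and 3.58% of Rps27. Rpl7l1 stood at 2.38%, 2.43% and 2.71% of Rpl7, and Rps4y2, at 55.1, 64.4 and 45.9 FPKM, at 3.83%, 4.31% and 3.93% of Rps4x. These ratios are taken within a group, so they do not depend on the scaling between groups.

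**Figure D4:**
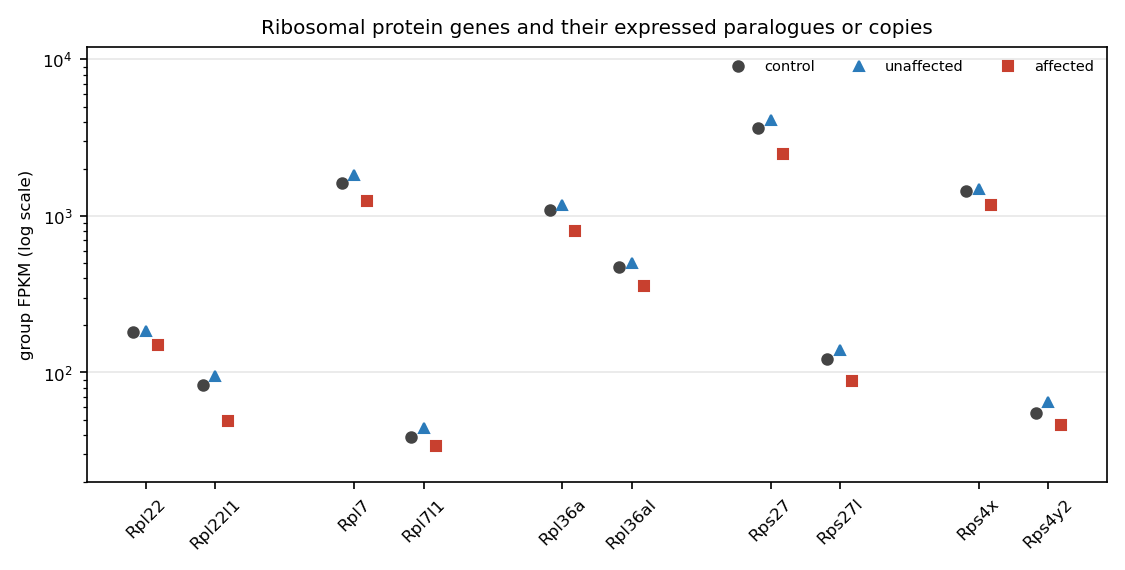
FPKM (log axis) of 5 ribosomal protein genes and their expressed paralogues or copies in control (circles), EtOH-exposed unaffected (triangles) and EtOH-exposed affected fetuses (squares), with 1 point per group and gene. In Rpl22l1 the affected point lies further below the others than in Rpl22, at 32.4% of the level of Rpl22 against 46.1% in control, while the other pairs keep closer ratios.

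Genes that act together with the ribosomal proteins were examined as lists. Fau and Gnb2l1 (now Rack1) encode ribosomal proteins under other names, Fau as a fusion with a ubiquitin-like protein and Gnb2l1 as a scaffold on the small subunit. Fau was at 1177, 1363 and 846.4 FPKM and Gnb2l1 at 1037, 1228 and 784.6 FPKM in control, unaffected and affected fetuses. Their log2 fold changes against control of -0.48 and -0.40 are in the range of the members, and both were lower by at least 20%.

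Elongation factors and other mRNAs listed for a TOP tract went in both directions. Their tract was not checked here, and the list was not matched to the members for coding length. Of 15 expressed genes, 9 were lower and 6 higher in affected than in control fetuses, with a median of -0.08, and 3 (Tpt1, Eef1b2 and Eif3h) were lower by at least 20%, or 20% against the background of 11.5%. Tpt1, which encodes a small growth-related protein, was at 4730, 5295 and 3605 FPKM, with -0.39. Eef2, the translocation factor, was at 897.4, 837.7 and 1026 FPKM, with 0.19, and Eef1g at 768.6, 831.8 and 656.0 FPKM, with -0.23. The TOP mRNA of Eef1a1 was listed at 0 in all groups and was left out.

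The list of ribosome biogenesis factors had a median of -0.06 for affected against control over 41 genes. Lower by at least 20% were 4 of them, or 9.76% against the background of 11.5%, and 0 were higher by at least 25%, a limit that 12.6% of all loci passed. The 4 were Tsr1, Nop10, Nip7 and Emg1. Tsr1, counted in 1 locus with Snord91a, was the highest of the list, at 410.1, 219.5 and 172.6 FPKM, with -1.25, and Nop10, a part of the particles that modify ribosomal RNA, was at 133.0, 147.2 and 94.7 FPKM, with -0.49. Fbl, which methylates ribosomal RNA, was at 127.7, 134.1 and 118.8 FPKM, with -0.10, and Rrp1 at 134.9, 138.2 and 135.8 FPKM, with 0.009. RNA polymerase I and its factors had a median of 0.004 over 15 genes, with 2 (Polr1c and Polr1d) lower and 1 (Polr1a) higher at these limits. The mitochondrial ribosomal proteins had a median of -0.26 over 76 genes, and 22, or 28.9% against the background of 11.5%, were lower by at least 20%. This list was not matched for coding length. Of other loci up to 400 nt, 40.4% were lower by as much, and of those between 400 and 600 nt 24.4%, with medians of -0.27 and -0.19. Regulators of ribosomal protein mRNAs had a median of 0.18 over 16 genes, with 0 lower and 4 (Eif4ebp2, Tsc2, Larp1 and Rptor) higher at these limits, or 25% against 12.6% of all loci. Rheb, which activates mTOR, was at 79.3, 83.1 and 63.8 FPKM, with -0.31, and Mycn, a transcription factor that drives ribosomal protein genes, at 45.8, 43.7 and 52.6 FPKM, with 0.20.

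Against unaffected fetuses, Fau had -0.69 and Gnb2l1 -0.65 in affected fetuses, and the medians were -0.18 for the TOP list, -0.14 for biogenesis, -0.13 for RNA polymerase I, -0.38 for the mitochondrial ribosomal proteins and 0.25 for the regulators. In the order of these lists, lower by at least 20% were 5 of 15, 10 of 41, 5 of 15, 55 of 76 and 2 of 16, against 18.5% of all loci. Higher by at least 25% were 1 of 15, 4 of 41, 1 of 15, 0 of 76 and 6 of 16, against 20.7% of all loci. The lists were not matched for coding length. Of other loci up to 400 nt, 61.5% were lower by at least 20%, and of those between 400 and 600 nt 45.2%.

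Markers of the tissue were present: all 7 projection neuron genes and all 7 progenitor genes of the cortex were expressed, and 0 of 6 mid- and hindbrain genes were. Summed over each list, projection neuron markers stood at 770.1, 685.1 and 865.5 FPKM in control, unaffected and affected fetuses and progenitor markers at 397.2, 412.5 and 482.6 FPKM. Erythroid markers, of which 4 of 4 loci were expressed, summed to 456.0, 594.7 and 370.6 FPKM, the same order as the ribosomal protein genes. Microglial markers, 5 of 5, summed to 46.5, 47.9 and 38.9 FPKM, but 4 of the 5 were lower in unaffected than in control fetuses, and Csf1r was higher in affected than in control fetuses. Choroid plexus markers, 3 of 4, summed to 984.5, 1308 and 1096 FPKM, with Kl below the filter, and ventral telencephalon markers, 7 of 7, to 167.0, 194.1 and 180.0 FPKM. Ttr made up most of the choroid plexus sum, at 970.2, 1291 and 1077 FPKM, while Clic6 was highest in affected fetuses, at 4.48, 5.36 and 8.31 FPKM. Of the progenitor markers, Hes5 alone was lower in affected than in control fetuses. Meningeal markers summed to 68.2, 62.6 and 59.5 FPKM and endothelial ones to 52.6, 53.4 and 53.8 FPKM, with 4 of 4 expressed in each. Against control, Dcn and Lum were lower and Col1a1 and Col1a2 higher in affected fetuses, and of the endothelial genes Cldn5 was lower and the other 3 higher. Thalamic markers, 2 of 4 with Gbx2 and Rora below the filter, summed to 9.46, 7.26 and 7.19 FPKM. The part of these cell types in the ribosomal protein values was not tested, and in tissue RNA fewer cells of a type and less RNA per cell cannot be told apart.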

How the data were processed

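The authors made TruSeq RNA libraries, sequenced them as paired reads of 50 bases, aligned them to mm10 (STAR, Bowtie and TopHat appear in the methods, and the submitters' processing notes name Bowtie2 2.2.4.0, Cufflinks and Cuffdiff), and deposited 1 FPKM per locus and group. The deposited table also holds the authors' own fold changes, test statistics, p-values and q-values, which were not used here. Columns with values of single animals numbered 0, so no test, error, depth or counting interval is given, and 3 animals per group limit the precision.

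Folds are ratios of the deposited FPKM without a pseudocount, over loci with a mean of at least 1 FPKM and a value above 0 in each group. Of the members, 3 are read from loci with joined names, and 9 loci span more than 20 kb, beyond the RefSeq gene, so coordinates are RefSeq's. Coding sequences came from GENCODE M21 and starts from RefSeq GRCm38.p6. Genes were named by a rule: the 10 highest, the 10 with the largest and the 5 with the smallest difference between affected and control, exceptions in sign, paralogues or copies, members with a known role of their own and up to 3 genes per list. Rps15a, Rps26, Rpl37, the genes of the start examples and those whose direction a scale changed were named after their values were seen. Values of 2 genes are not reported here. The members and lists were chosen with earlier results of these data known. Alternatives were another pseudocount, filter, fold and scale, and members left out. Scripts ran in Python 3.11.15 with pandas 2.3.3 and numpy 2.4.6, and were tested on simulated data.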

Additional observations from a re-analysis of the deposited data

How the results depend on the processing

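The median log2 fold changes, the difference between the subunits and the counts of members lower by at least 20% moved by less than 1.5 times with 1 FPKM added, with another filter, without joined loci and without members that have a paralogue or copy. With a fold of 1.5, 1 member was lower against control and 36 against unaffected fetuses, and with a fold of 1.1, 49 were higher in unaffected than in control fetuses. With equal sums over all loci, the medians were -0.253 for affected against unaffected, with 26 members lower, and -0.19 for unaffected against control. The following settings were chosen after seeing the data. With equal sums over named loci, the medians for affected against control, affected against unaffected and unaffected against control were -0.232, -0.312 and 0.072, and 26 and 39 members were lower against control and unaffected fetuses (4.81% and 5.49% of all loci). Centred on other loci up to the longest coding length, the median was -0.368 for affected against unaffected and 0.078 for unaffected against control, and 38 members were lower against control. Centred on other loci of at least 100 FPKM, the medians were -0.263, -0.305 and 0.064, and 29 and 38 members were lower (5.42% and 5.27% of all loci). Among members with at least 50% of their sequence unique, 8 and 11 were lower of 13, the large minus small subunit difference was 0.188, 0.25 and -0.076, and the upper quartile of levels was 9.84, 11.3 and 9.25 times the lower one in control, unaffected and affected fetuses. The shifts between scales follow from their construction, and the cause of the other changes was not tested beyond the smaller number of genes. The centring on protein length was not run, and coding length stands in its place. No paired analysis was possible because the table holds 1 value per group, and for the same reason no animal could be left out.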
